A study of Rattus norvegicus with 9 samples.

Results

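Mitochondrial DNA encodes 7 of the protein subunits of respiratory complex I, the NADH dehydrogenase that passes electrons from NADH to ubiquinone and pumps protons out of the mitochondrial matrix. The 7 genes, mt-Nd1, mt-Nd2, mt-Nd3, mt-Nd4, mt-Nd4l, mt-Nd5 and mt-Nd6, are described here in rat kidney together with mt-Tp, the gene of the mitochondrial transfer RNA for proline. They are 8 of the 17862 features in the files, and each was matched by its Ensembl identifier. The set was chosen by gene identity with the group differences in FPKM of these same libraries already known, so every difference between groups below describes the 8 genes and is not an independent test of them. All 8 were found in every library, and all 8 passed the filter on low values (mean FPKM of 1 or more). FPKM is the number of fragments scaled by the length of the feature and by a total for the library.

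Kidney RNA was sequenced after depletion of ribosomal RNA in 9 samples, all taken at 6 weeks of age. The QDG group (n = 3) was hypertensive and received Qingda granule, a Chinese herbal preparation; the Model group (n = 3) was hypertensive and is not described as treated; and the WT group (n = 3) was normal. The sources used here do not give the strain, the origin of the hypertension, the dose, the sex or which samples were separate animals. Hypertension can therefore not be told apart from a difference of strain, and the errors and tests below measure the variation among these samples alone, part of which may be technical. The organism is given as rat, whereas 17553 of the 17862 features carry Ensembl identifiers of the form used for mouse genes. How well reads of each gene matched the annotated sequence was not tested, and differences in level between genes can hold a part from it.

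In mammals the mitochondrial genome is a small circle whose strands, called heavy and light, are each copied into long precursor RNAs. These are cut at the transfer RNAs into single messengers, transfer RNAs and ribosomal RNAs. Most of the messengers, 6 of the 7 of complex I among them, lie in the precursor that is here named with the heavy strand, while mt-Nd6 and mt-Tp lie in the opposite one. The mt-Nd4l and mt-Nd4 reading frames overlap and stay together on 1 messenger, and mt-Nd5 and mt-Nd6 lie next to each other on opposite strands. Kidney tubules are rich in mitochondria, since sodium reabsorption uses much ATP.

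The labels do not say that strand was kept in the libraries or in the counting. Reads of mt-Nd6 or mt-Tp can therefore not be told apart from reads of any RNA of the opposite strand over the same bases. Nuclear genomes also hold copies of mitochondrial DNA, and the sources used here do not say how reads shared with such copies were assigned, so the levels are uncertain to that extent. In bulk tissue, fewer mitochondria-rich cells and less mitochondrial RNA per cell cannot be told apart.

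The feature lengths could be read from the deposited values, because the FPKM of a feature moved in steps of 1 read between libraries. The lengths were 957 bases for mt-Nd1 (ENSMUSG00000064341), 1038 for mt-Nd2 (ENSMUSG00000064345), 348 for mt-Nd3 (ENSMUSG00000064360), 1378 for mt-Nd4 (ENSMUSG00000064363), 297 for mt-Nd4l (ENSMUSG00000065947), 1824 for mt-Nd5 (ENSMUSG00000064367), 519 for mt-Nd6 (ENSMUSG00000064368) and 67 for mt-Tp (ENSMUSG00000064372). Of the 7 protein genes, 6 were a whole number of codons long. The exception, mt-Nd4, ended 1 base past a codon; in mammalian mitochondria some messengers gain the rest of their stop codon from the poly(A) tail. The 67 bases of mt-Tp are the size of a transfer RNA, so its reads can come from precursors that run past its ends.

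The 9 libraries held 26755859 to 29432022 recovered reads in the listed features. For 1 gene in 1 library the number ranged between 588 reads (mt-Nd4l in Model 3, exact 95% Poisson interval 541 to 638) and 553554 reads (mt-Nd1 in WT 1). The relative counting error was therefore 0.134% to 4.12%, and it covers counting alone. Values per sample below are in the order of replicates 1, 2 and 3.

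The 8 genes together took less of the library in Model kidneys than in both other groups. They held 8.81%, 9.86% and 11.5% of the summed FPKM in QDG, 7.74%, 8.14% and 8.51% in Model, and 15.3%, 12.7% and 11.4% in WT. The means were 10.1% ± 1.37 in QDG, 8.13% ± 0.383 in Model and 13.1% ± 2.0 in WT (SD, n = 3 each). All 3 Model libraries lay below every QDG and every WT library on this measure, while QDG 3 lay just above WT 3. As a share of recovered reads, which weighs long genes more, the values were 3.86% to 5.22% in QDG, 3.43% to 3.90% in Model and 4.86% to 7.17% in WT. By this measure Model 3 lay just above QDG 1, so those groups overlapped.

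**Figure D1:**
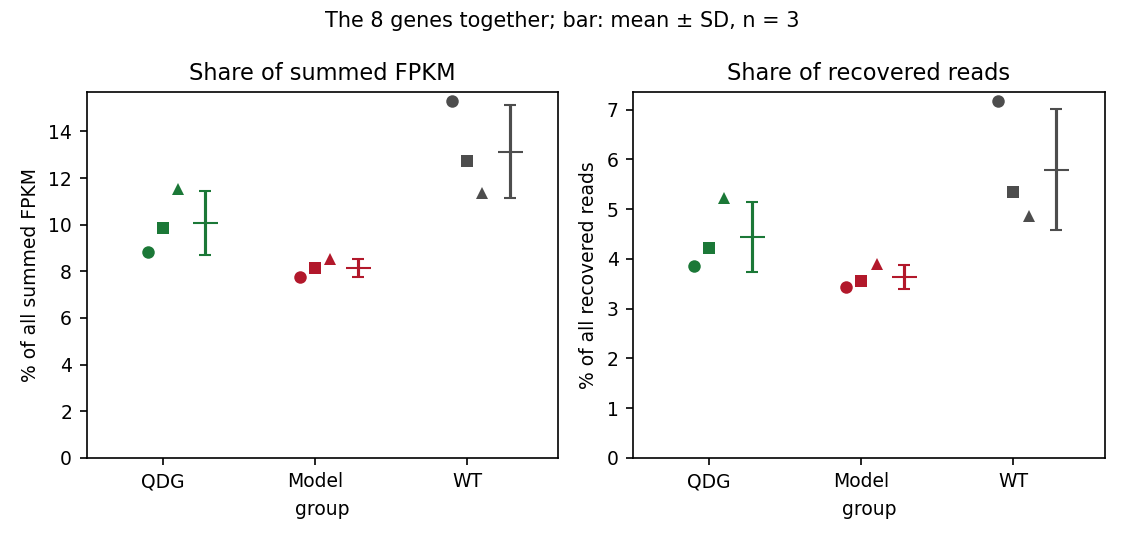
Share of each library taken by the 8 genes together, in percent of summed FPKM (left) and of recovered reads (right), by group; points are libraries and bars show the mean ± SD (n = 3). On the left the 3 Model libraries, at 7.74% to 8.51%, lie below all others; on the right Model 3 (3.90%) and QDG 1 (3.86%) are close.

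Levels among the genes differed by a wide margin and in a nearly fixed order. In 9 of 9 libraries mt-Nd1 stood above mt-Nd2 and mt-Nd2 above mt-Nd4, followed by mt-Nd5 and mt-Nd6, then mt-Tp, and last mt-Nd3 and mt-Nd4l. By mean FPKM over the 9 libraries, mt-Nd1 ranked 5th of all features at 14501, mt-Nd2 6th at 9949, mt-Nd4 7th at 7403, mt-Nd5 8th at 4802 and mt-Nd6 9th at 4695. The transfer RNA mt-Tp ranked 12th at 2702, mt-Nd4l 97th at 389 and mt-Nd3 161st at 284. Neighbours in this order were not always apart: mt-Nd5 was above mt-Nd6 in 7 libraries and below it in 2, and mt-Nd3 was above mt-Nd4l in 5 and below it in 4. On this per-length scale mt-Nd4l stood at 0.0102 to 0.120 of mt-Nd4 in the same library, although both are carried on 1 messenger in mammals. Whether the reads of each assign equally well was not tested.

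**Figure D2:**
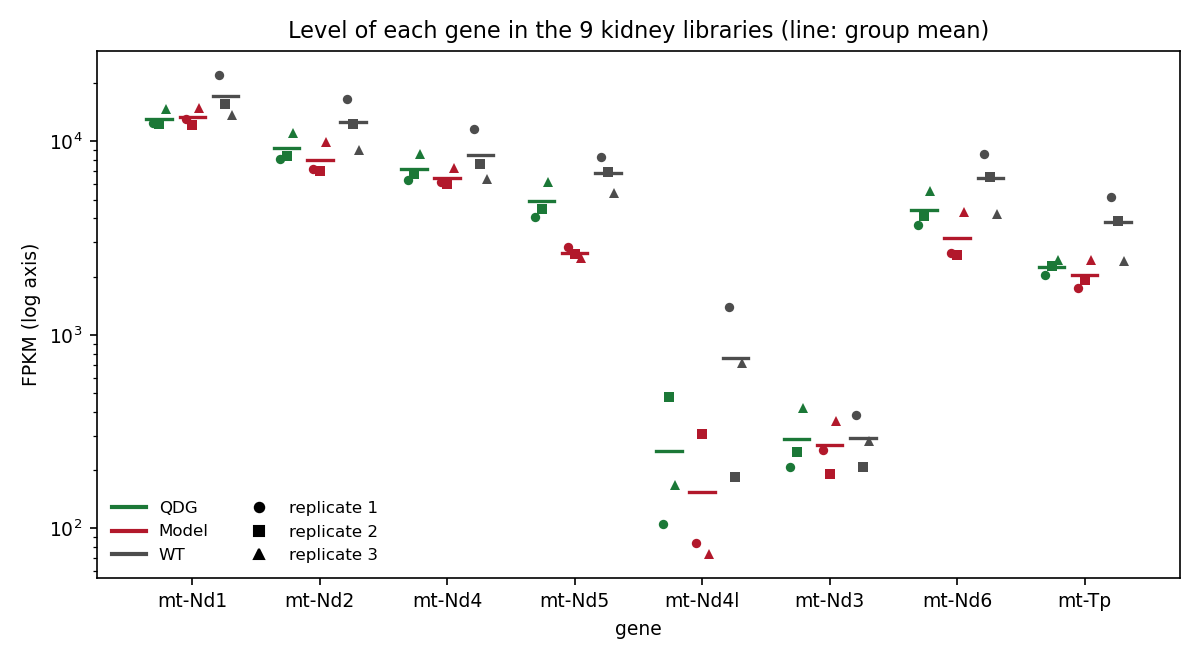
FPKM (log axis) of each gene in QDG, Model and WT kidneys; points are libraries, symbols mark the replicate and lines the group means (n = 3). The genes mt-Nd1, mt-Nd2 and mt-Nd4 keep their order everywhere, the 3 Model values of mt-Nd5 (2487 to 2842) lie below all its other values, and mt-Nd4l spreads widely within each group.

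The comparison of Model with WT asks what differs in the hypertensive kidney. The mt-Nd5 messenger was the gene of the set that differed most clearly: it fell in Model to 2643 ± 181 FPKM, against 6858 ± 1434 in WT (SD, n = 3 each). All 8 mean levels were lower in Model than in WT, except that the sign of mt-Nd3 turned without WT 1 or without Model 2 and that mt-Nd2 came to 0 after quantile normalization. Of these, mt-Nd5 was the only 1 of the 8 called by limma (adjusted p under 0.05), where 7.9% of the 12187 features tested were called. On the deposited FPKM it was also the only 1 of the 8 whose 3 Model values lay below its 3 WT values, a pattern that 10.9% of the features tested showed. Which genes overlap depends on how the libraries are scaled. The summed FPKM was highest in Model 3 (489773) and lowest in WT 3 (370528). The call of mt-Nd5 was lost when features of low level were kept in the fit, and held under the other 21 of 22 alternatives. Its adjusted p (limma) was 0.012 as reported and came near the threshold in some of these, up to 0.044 without Model 3. Leaving out a QDG library does not alter its log2 change. With voom on recovered reads 3 of the 8 were called, mt-Nd5, mt-Nd6 and mt-Tp, and mt-Nd6 and mt-Tp were each called under 7 of the 22. At an unadjusted limma p under 0.05 there were 3409 of the 12187 features and 5 of the 8 genes. With 1 of 8 called and 1 of 8 without overlap in FPKM, the set was near the share over all features on both counts. These shares are given for scale, since the set was chosen with this comparison known.

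Among the messengers of the heavy-strand precursor, mt-Nd5 encodes a large subunit in the proton-pumping membrane arm of the complex. Its level was 2842, 2601 and 2487 FPKM in Model, against 8272, 6896 and 5404 FPKM in WT. The Model libraries lay close together, and the lowest WT library was still above the highest Model library. The log2 change was −1.36 with an SE of 0.22 (95% interval −1.85 to −0.86), a ratio of means of 0.385. This was the 22nd lowest change among the 12187 features and the 6th lowest among the 536 that averaged 100 FPKM or more.

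The next gene in the order of the genome, mt-Nd6, encodes another membrane-arm subunit from the opposite strand. It had 2655, 2592 and 4294 FPKM in Model, against 8632, 6569 and 4207 FPKM in WT. Model 3 stood above WT 3, so the groups overlapped. The log2 difference came to −1.0 (SE 0.30, 95% interval −1.68 to −0.33) and was not called. For mt-Tp, which is read from the same strand as mt-Nd6, the levels were 1751, 1928 and 2427 FPKM in Model, against 5164, 3889 and 2417 FPKM in WT. Again Model 3 stood above WT 3, here by little, and the groups overlapped. Its log2 difference came to −0.86 (SE 0.26, 95% interval −1.44 to −0.27) and was not called. Without WT 3 both were called, with log2 changes of −1.28 for mt-Nd6 and −1.15 for mt-Tp.

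Of the other membrane-arm subunits, mt-Nd2, mt-Nd4 and mt-Nd1 had smaller differences, with groups that overlapped in FPKM. Each overlap came from Model 3 standing above WT 3. In reads Model 3 was below WT 3 for each. It had 277521 against 294906 for mt-Nd2, 268645 against 276207 for mt-Nd4 and 380270 against 410348 for mt-Nd1. The mt-Nd2 level was 7151, 6978 and 9964 FPKM in Model, against 16604, 12278 and 9047 FPKM in WT, with a log2 difference of −0.63 and an SE of 0.27. The mt-Nd4 level was 6125, 6042 and 7266 FPKM in Model, against 11543, 7586 and 6383 FPKM in WT, with a log2 difference of −0.35 and an SE of 0.25. For mt-Nd1, whose product joins the membrane arm to the arm that reaches into the matrix, the level was 13002, 12156 and 14809 FPKM in Model, against 22072, 15513 and 13655 FPKM in WT. Its log2 difference came to −0.33 (SE 0.23). None of these differences was called, and the 95% intervals were −1.23 to −0.03 for mt-Nd2, −0.91 to 0.20 for mt-Nd4 and −0.85 to 0.19 for mt-Nd1.

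The remaining messengers code for small membrane subunits. In Model mt-Nd3 had 255, 191 and 358 FPKM, against 386, 209 and 284 FPKM in WT, and the groups lay over each other. Its log2 difference came to −0.13 (SE 0.31, 95% interval −0.83 to 0.57). The largest log2 difference of the set was in mt-Nd4l, with 84.1, 307 and 73.8 FPKM in Model, against 1388, 184 and 714 FPKM in WT. Model 2 stood above WT 2, so the groups overlapped, and the log2 difference of −2.18 had an SE of 0.79 (95% interval −3.95 to −0.42) and was not called. It moved to −1.54 without WT 1, −2.99 without WT 2 and −2.83 without Model 2.

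Abundant features as a class did not share this direction. Of the 536 features that averaged 100 FPKM or more, which include the 8 genes, 24.4% were lower in Model than in WT, and their median log2 difference was 0.27. The median over the 8 genes was −0.74, and over all 12187 features it was 0.02. No test was attached to these counts.

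**Figure D3:**
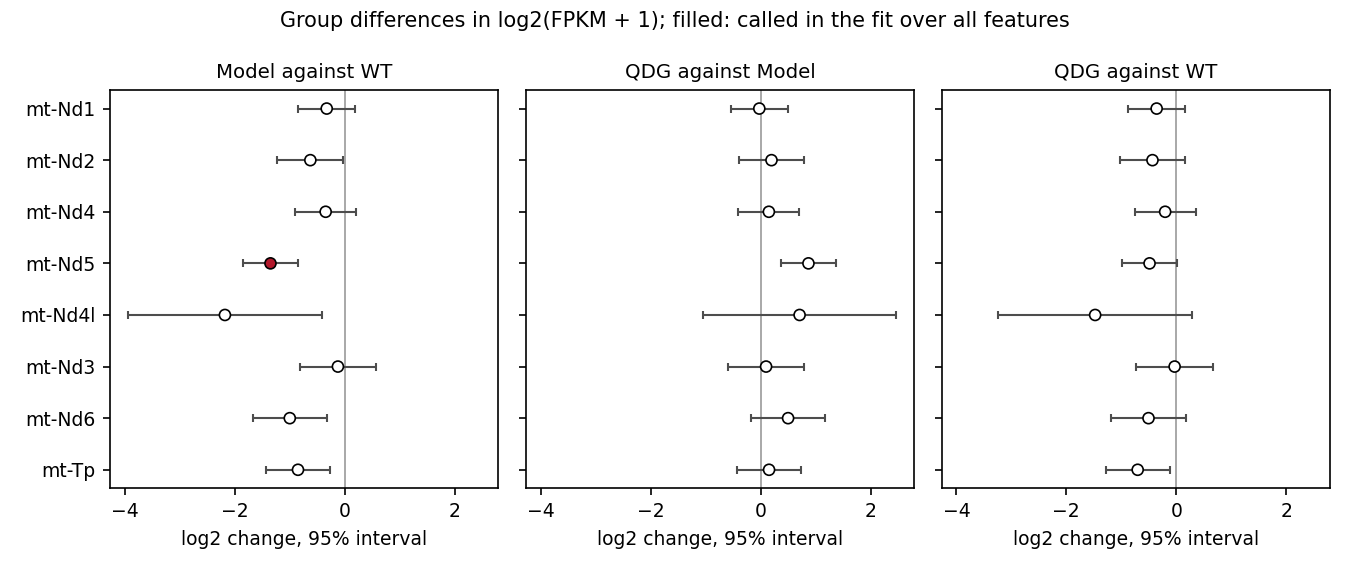
Log2 differences in FPKM with their 95% intervals (limma, log2(FPKM + 1), all 9 libraries) for the 8 genes in the 3 comparisons; filled circles are called at an adjusted p under 0.05. Only mt-Nd5 in Model against WT (−1.36) is filled. Intervals lie on 1 side of 0 for 5 genes in Model against WT. They do so for mt-Nd5 alone in QDG against Model (0.37 to 1.37) and for mt-Tp alone in QDG against WT. The intervals are not adjusted for the number of features.

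The comparison of QDG with Model asks what differed in the kidneys that received the granule. No gene of the set was called in this comparison, nor was any of the 12187 features (0% called; limma, adjusted p under 0.05, and also 0 with voom on recovered reads). At an unadjusted limma p under 0.05 there were 1695 of the 12187 features and 1 of the 8 genes. Thus 1 of 8 was near the share over all features. The gene was mt-Nd5. Its level was 4062, 4476 and 6173 FPKM in QDG, against 2842, 2601 and 2487 FPKM in Model. On the deposited FPKM every QDG library lay above every Model library, which was the case for this gene alone of the 8 and for 10.4% of the features tested. The log2 difference came to 0.87 (SE 0.22, 95% interval 0.37 to 1.37), a ratio of means of 1.85. It was the highest difference among the 536 features of at least 100 FPKM and the 23rd highest among all tested.

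For the other genes the QDG and Model values overlapped on the deposited FPKM. The mt-Nd6 level was 3685, 4109 and 5512 FPKM in QDG, against 2655, 2592 and 4294 FPKM in Model, with a log2 difference of 0.50 and an SE of 0.30. Only Model 3 reached into the QDG range. The mt-Nd4l level was 105, 479.7 and 167 FPKM in QDG, against 84.1, 307 and 73.8 FPKM in Model, with a log2 difference of 0.71 and an SE of 0.79. In both groups replicate 2 was the high library: the difference came to 0.09 without QDG 2 and to 1.36 without Model 2.

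The 5 remaining genes had log2 differences between −0.02 (mt-Nd1) and 0.20 (mt-Nd2). Their levels in QDG were 12388, 12244 and 14673 FPKM for mt-Nd1, 8134, 8354 and 11034 for mt-Nd2 and 6269, 6793 and 8618 for mt-Nd4. They were 208, 248 and 416 FPKM for mt-Nd3 and 2048, 2268 and 2427 for mt-Tp. The intervals were wide: for mt-Nd1 the 95% interval was −0.54 to 0.50, for mt-Nd2 −0.40 to 0.80, for mt-Nd4 −0.40 to 0.70, for mt-Nd3 −0.60 to 0.80 and for mt-Tp −0.43 to 0.74. These data therefore do not show that the levels were alike. The median difference over the 8 genes was 0.18, against −0.21 over the 536 abundant features, of which 79.7% were lower in QDG, and −0.02 over all features tested.

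In QDG against WT, which asks how the treated hypertensive kidney stands to the normal one, 0 of the 8 genes were called (limma, adjusted p under 0.05; also 0 with voom), where 2.47% of all features were. At an unadjusted limma p under 0.05 there were 2597 of the 12187 features and 1 of the 8 genes, mt-Tp. On the deposited FPKM no gene had its 3 QDG values below its 3 WT values, a pattern found in 12.5% of features. All 8 mean levels were lower in QDG than in WT, but without WT 1 the sign turned for mt-Nd3 and mt-Nd4, without QDG 1 or QDG 2 it turned for mt-Nd3, and quantile normalization brought mt-Nd2, mt-Nd4 and mt-Nd5 to 0. For mt-Tp the mean was 2248 ± 190.0 FPKM in QDG and 3823 ± 1375 in WT (SD, n = 3 each), a log2 difference of −0.70 with an SE of 0.26 (95% interval −1.29 to −0.12). Without WT 3 this gene was called. For mt-Nd5 it was 4903 ± 1119 FPKM in QDG and 6858 ± 1434 in WT, a log2 difference of −0.49 with an SE of 0.22 (95% interval −0.98 to 0.01). For mt-Nd6 the log2 difference came to −0.50 (SE 0.30), and for mt-Nd4l −1.48 with an SE of 0.79. The value of mt-Nd4l moved to −0.83 without WT 1, −2.29 without WT 2 and −2.09 without QDG 2.

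The Model libraries enter the first 2 comparisons with opposite sign and the WT libraries enter 2 as well, so these values are not independent of each other. The QDG mean lay between the Model and WT means for 7 of the 8 genes, and for mt-Nd1 it lay just below the Model mean, a sign that turned under 9 of 22 alternatives. Of all 12187 features tested, 42.5% had their QDG mean between the other 2 means, as had 41.5% of the 5784 with a lower mean in Model than in WT. Among the 536 features of at least 100 FPKM the share was 50.6%, and among the 131 of these lower in Model it was 32.1%. Most of the 8 genes moved together over the libraries, so they are not separate observations. Whether the count among the 8 genes goes with the granule was not tested.

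Ratios within a library do not depend on how libraries were scaled to each other. On the ratios below, the Model libraries were set apart for mt-Nd5 and, over some genes, for mt-Nd6. How often ratios between other features separate these groups was not counted, so it is not known whether this is particular to these genes. The ratio of mt-Nd5 to mt-Nd4, its neighbour upstream among the messengers of the set, was 0.648, 0.659 and 0.716 in QDG, 0.464, 0.431 and 0.342 in Model, and 0.717, 0.909 and 0.847 in WT. Every Model library lay below every QDG and WT library, and the highest QDG value nearly met the lowest WT value. Relative to mt-Nd1, mt-Nd5 was at 0.328 to 0.421 in QDG, 0.168 to 0.219 in Model and 0.375 to 0.445 in WT. Relative to mt-Nd2 it was at 0.499 to 0.559 in QDG, 0.250 to 0.397 in Model and 0.498 to 0.597 in WT. So Model was also set apart on these, whereas QDG and WT overlapped.

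For the light-strand genes the pattern depended on the gene they were divided by. Relative to mt-Nd1, mt-Nd6 was at 0.297 to 0.376 in QDG, 0.204 to 0.290 in Model and 0.308 to 0.423 in WT. Relative to mt-Nd2 it was at 0.453 to 0.4996 in QDG, 0.371 to 0.431 in Model and 0.465 to 0.535 in WT. Over both genes Model lay below QDG and WT without overlap while QDG and WT overlapped, as for mt-Nd5. The ratio of mt-Nd6 to mt-Nd4 was 0.588, 0.605 and 0.640 in QDG, 0.433, 0.429 and 0.591 in Model, and 0.748, 0.866 and 0.659 in WT. Both hypertensive groups lay below WT without overlap, and QDG overlapped Model through Model 3. The ratio of mt-Tp to mt-Nd4 was 0.327, 0.334 and 0.282 in QDG, 0.286, 0.319 and 0.334 in Model, and 0.447, 0.513 and 0.379 in WT. Here QDG and Model covered the same range and both lay below WT. The ratio of mt-Nd2 to mt-Nd4 was also below WT in both, at 1.23 to 1.30 in QDG, 1.15 to 1.37 in Model and 1.42 to 1.62 in WT. For mt-Nd1 to mt-Nd4 QDG was the group set apart from Model, with 1.70 to 1.98 in QDG, 2.01 to 2.12 in Model and 1.91 to 2.14 in WT. Between the 2 light-strand genes, the ratio of mt-Tp to mt-Nd6 was 0.440 to 0.556 in QDG, 0.565 to 0.744 in Model and 0.574 to 0.598 in WT. On it QDG lay below both other groups without overlap, while Model and WT overlapped. These ratios come from the same values as the comparisons above and carry no test, and no share over other features stands beside them.

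**Figure D4:**
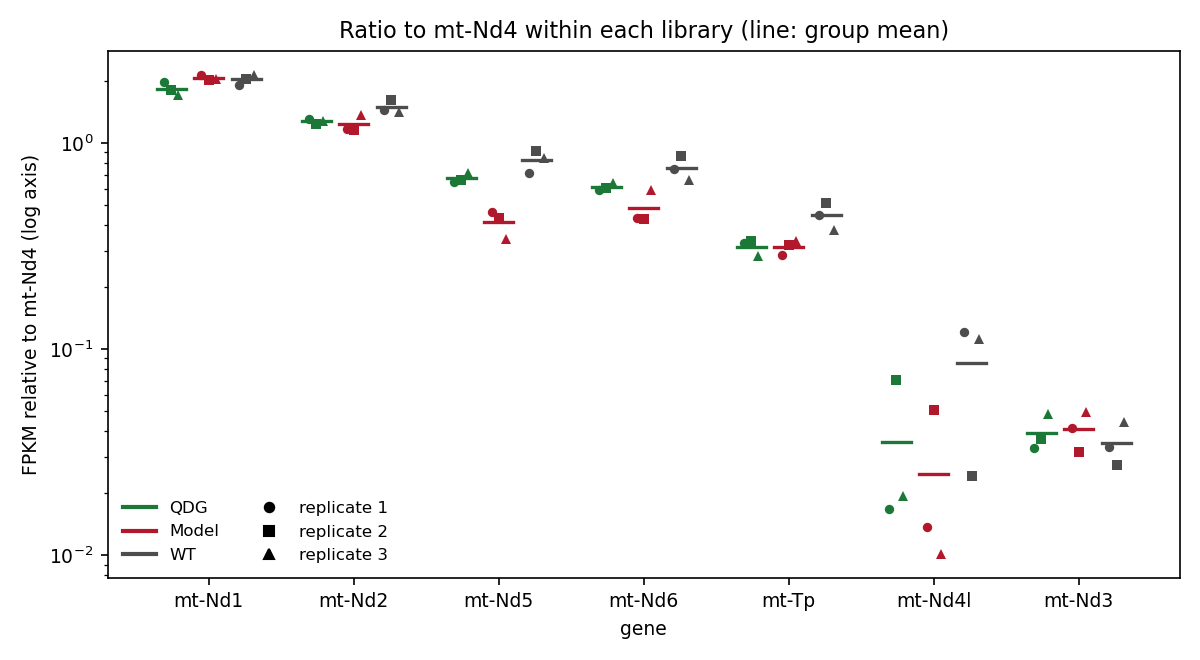
FPKM of each gene divided by that of mt-Nd4 in the same library (log axis), in QDG, Model and WT kidneys; points are libraries, symbols mark the replicate and lines the group means (n = 3). For mt-Nd5 the Model values (0.342 to 0.464) lie below QDG (0.648 to 0.716) and WT (0.717 to 0.909), and for mt-Tp both hypertensive groups lie below WT (0.379 to 0.513).

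Single libraries moved most of the genes together. WT 1 was the highest of the 9 libraries for 7 of the 8 genes; mt-Nd3 was highest in QDG 3. Model 2 was the lowest for 5, Model 3 for 2 (mt-Nd4l and mt-Nd5) and Model 1 for 1 (mt-Tp). After removal of the group means, the log2 levels of mt-Nd1, mt-Nd2, mt-Nd4, mt-Nd6 and mt-Tp correlated with each other over the 9 libraries at r = 0.88 to 0.99. Their correlations with mt-Nd5 were 0.66 to 0.82, and those of mt-Nd3 with these 6 genes 0.45 to 0.75. The genes share their libraries and scaling, and r is given as a description.

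Model 3 broke the pattern for mt-Nd5. In that library mt-Nd1, mt-Nd2, mt-Nd3, mt-Nd4, mt-Nd6 and mt-Tp were at their highest within Model, while mt-Nd5 and mt-Nd4l were at their lowest. The ratio of mt-Nd6 to its neighbour mt-Nd5 was 1.73 in Model 3, against 0.934 and 0.996 in the other Model libraries, 0.893 to 0.918 in QDG and 0.779 to 1.04 in WT. The cause was not tested.

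The mt-Nd4l level was the least stable of the set. Within groups its highest library stood 4.57-fold above its lowest in QDG, 4.16-fold in Model and 7.55-fold in WT, and over all 9 libraries the range was 18.8-fold. The SD between replicates on the log2 scale was 1.25, which exceeded that of 99.8% of the 536 abundant features, whose median was 0.21. Relative to mt-Nd4 in the same library it was at 0.0167, 0.0706 and 0.0194 in QDG, 0.0137, 0.0507 and 0.0102 in Model, and 0.120, 0.0242 and 0.112 in WT. WT 1, WT 3, QDG 2 and Model 2 were thus high and the other 5 libraries low, across the groups. Its within-group deviations hardly went with those of the other 7 genes (r = −0.07 to 0.22). It had 588 to 10807 reads in a library, and its relative counting error was at most 4.12%.

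The other genes varied less, though more than most features. Their SDs between replicates were 0.24 for mt-Nd1, 0.26 for mt-Nd5, 0.30 for mt-Nd4, 0.33 for mt-Nd2, 0.36 for mt-Tp, 0.42 for mt-Nd6 and 0.47 for mt-Nd3. The median over all 12187 features was 0.16. The SD of mt-Nd5 was above that of 83.0% of all features tested. Its coefficient of variation was lowest in the Model group, at 6.84%, against 22.8% in QDG and 20.9% in WT.

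**Figure D5:**
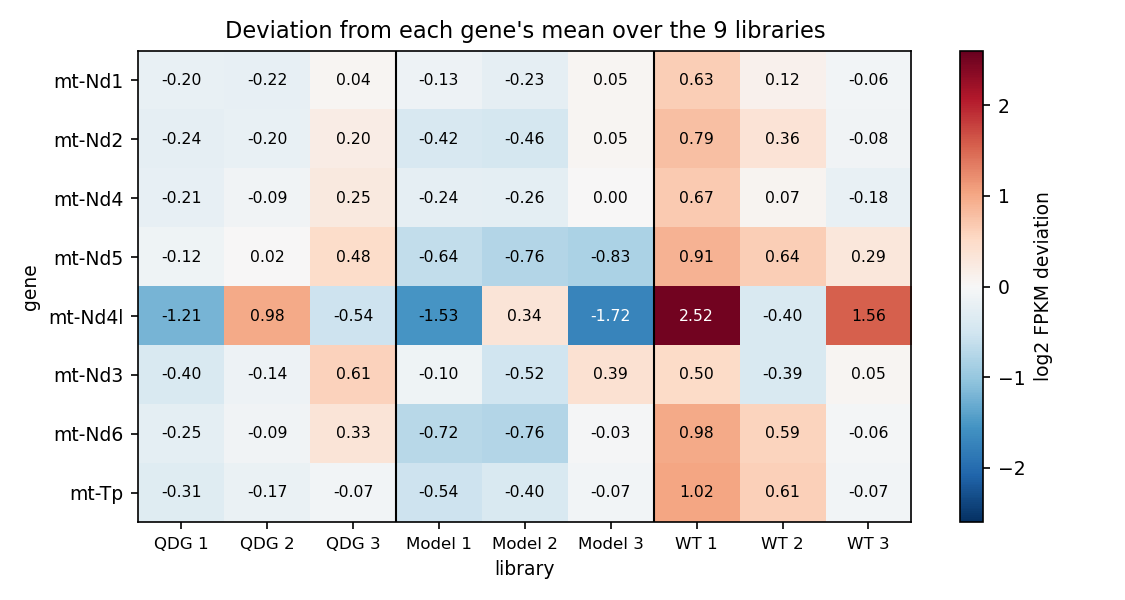
Log2 deviation of FPKM from each gene's mean over the 9 libraries, with libraries grouped as QDG, Model and WT. WT 1 is high for all genes (0.50 for mt-Nd3 to 2.52 for mt-Nd4l), mt-Nd5 is negative in all 3 Model libraries (−0.64 to −0.83), and mt-Nd4l changes sign within each group.

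Outside the set, 12179 features were compared with the mean of the standardized log2 levels of the 6 heavy-strand genes over the 9 libraries. Most like this mean were ENSMUSG00000022228 (Pearson's r = 0.98) and ENSMUSG00000097415 (r = 0.96). The 6 genes themselves did not share 1 profile, with r = 0.17 between mt-Nd3 and mt-Nd4l. Without the 2 libraries farthest from the median, the r of these 2 features was 0.94 and 0.84. Most like mt-Nd6 were ENSMUSG00000009647 (r = 0.97) and ENSMUSG00000001657 (r = 0.96), with 0.92 for each without 2 libraries. These features are far less abundant: ENSMUSG00000022228 had 6.88 ± 1.09 FPKM in QDG, 6.28 ± 0.554 in Model and 8.47 ± 1.34 in WT (SD, n = 3 each), and ENSMUSG00000009647 had 3.44 ± 0.185 in QDG, 3.09 ± 0.125 in Model and 3.78 ± 0.329 in WT. The files do not pair these identifiers with gene names. The libraries fall into groups and the features were picked as the closest of many, so no p-value was attached.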

How the data were processed

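RNA from kidney tissue was sequenced in 9 samples in 3 groups, assigned by their titles. The deposited FPKM values had been scaled by the authors to feature length and a library total, 1 value per feature and library. The file headers name no unit; it was read from the values, which within a feature moved in whole steps set by feature and library. Whole reads and feature lengths were recovered for 17861 of 17862 features, within 0.001 read or a relative 3e-08. The library totals implied were 26206894 to 31402487. The recovered reads were 0.900 to 1.07 times these totals and exceeded them in 4 libraries, so the total was not the sum of the listed reads, and the sources used here do not say what it was. The submitters' processing notes name limma; the sources used here name no aligner, counter, build or annotation. No value was 0.

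One limma 3.58.1 model (R 4.3.3) with an intensity trend was fitted to log2(FPKM + 1) of all 9 libraries over the 12187 features that averaged 1 FPKM or more. Two-sided p-values were adjusted by Benjamini-Hochberg over all features tested in each comparison. Log2 changes include this pseudocount of 1, which understates those of low features. The procedure was tested on simulated data. Chi-square per degree of freedom between libraries of a group was 11.9 to 67.9, so none repeated another within counting noise.

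The members, lists and alternatives were chosen with earlier results of these data known. All 8 members are named, and outside them the 2 features most correlated with the mean profile of the heavy-strand members and the 2 most like mt-Nd6. Lists of nuclear complex I genes, other mitochondrial genes, RNA-processing factors and kidney cell markers are written in symbols; the files and tables at hand pair no identifiers with symbols, so these lists were not used and the tissue was not checked against markers. Sequences of the members were not used here.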

Additional observations from a re-analysis of the deposited data

How the results depend on the processing

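Each member's log2 change was recomputed in 3 comparisons under 22 alternatives (528 values); 505 kept their sign, 17 took the other sign and 6 came to 0. The values with the other sign were 9 for mt-Nd1 in QDG against Model, 7 for mt-Nd3 over the 3 comparisons and 1 for mt-Nd4 in QDG against WT. In Model against WT, mt-Nd5 was called under 21 of 22 (limma, adjusted p of 0.0041 to 0.044), with log2 changes of −1.53 to −0.96. It was not called without a filter on low values, where 0 members were called among 17862 features. Members called numbered 1 as reported, 2 with a mean of at least 5 FPKM (mt-Nd5 and mt-Nd6) and 2 after quantile normalization (mt-Nd5 and mt-Tp). They numbered 3 (mt-Nd5, mt-Nd6 and mt-Tp) with the same total in every library, with the same total of the other features, with voom on recovered reads, with the length trend removed and with the same sum of recovered reads, an alternative chosen after seeing the data. Leaving out 1 library gave 1 to 3, with 3 only without WT replicate 3. In QDG against WT, 0 were called as reported, 1 (mt-Tp) after quantile normalization, and 0 to 1 with 1 library left out, with 1 only without WT replicate 3. In QDG against Model 0 members were called under all 22. Quantile normalization fixes the values at each rank, and these genes are among the highest ranks, which set 6 of their differences to 0. Setting the same total of the other features shifted the median of all features by −0.12 in Model against WT and by 0.10 in QDG against Model; mt-Nd5 then stood at −1.51 in Model against WT. Over all features, calls ranged between 144 (only the 2 groups in the fit) and 1529 (without WT 3) in Model against WT, 0 and 3 (without Model 1) in QDG against Model, and 39 (without QDG 2) and 775 (without WT 3) in QDG against WT, against 963, 0 and 301 as reported. The replicate block gave 1, 0 and 0 members called, as without it, and 533, 0 and 154 features. Same-numbered libraries of different groups deviated together at r = −0.33 to 0.14 and others at −0.24 to 0.43. No sign of pairing by number was seen, but so few libraries cannot settle whether the samples were paired. As a share of recovered reads the members took 4.43% in QDG, 3.63% in Model and 5.79% in WT. The relative counting error of a member in a library was 0.134% to 4.12%; no alternative varied depth.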
